A study of Homo sapiens with 6 samples.

Results

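The 47 genes described here carry out DNA replication and mitosis. They were taken by symbol from the deposited gene table of 61517 genes, and all 47 were found, 25 of S phase and 22 of mitosis. The cells were THP-1, a human monocytic leukaemia line, which the study differentiated into macrophages and stimulated with lipopolysaccharide (LPS) and ATP to bring on pyroptosis, a lytic inflammatory cell death. Cells of 1 group, called ruxolitinib here, also received ruxolitinib, an inhibitor of the kinases JAK1 and JAK2 (written Lukotinib in the treatment field). The other group, called control, was stimulated without the drug; its treatment field reads none, and the stimulation is taken from the study's design text. Each group had 3 libraries of poly-A-selected RNA, and each library carries a batch number from 1 to 3 that it shares with 1 library of the other group. The sources used here state neither the dose nor how long any treatment lasted, nor what was used for differentiation, and unstimulated cells are not analysed here. THP-1 is a single leukaemia line with its own driver lesions, so its cell cycle need not be that of a primary macrophage.

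As background, a dividing cell licenses its replication origins in G1 by loading the MCM helicase, fires them in S phase, and then condenses and separates the copied chromosomes in mitosis. Genes of S phase are switched on by E2F transcription factors late in G1. Mitotic genes come on later, through the MuvB complex with B-MYB and FOXM1, which reads a short promoter element called the CHR. Macrophage differentiation is known to take THP-1 cells largely out of the cycle, so transcripts of both programmes are usually low in such cultures.

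The libraries held 18796476 to 19253534 counts with ruxolitinib and 17757595 to 24533979 in control. A count of 0 in a library allows up to 0.156 to 0.160 counts per 1000000 library counts (CPM) with ruxolitinib and 0.122 to 0.169 CPM in control, counting error only. Genes detected numbered 21126 to 21412 with ruxolitinib and 21986 to 24798 in control. Of 16 macrophage markers, 15 were high enough to test, and their summed level was 3616 to 3800 CPM with ruxolitinib against 6647 to 6840 CPM in control. Among those markers 13 fell, LYZ rose and CTSD did not pass. With the batch as a block LYZ (adjusted p = 0.101), ITGAX (0.0938) and TYROBP (0.0579) no longer passed, and LYZ was lost in 12 of 17 alternative settings. The summed level of 12 markers of undifferentiated myeloid precursors was 53.1 to 54.2 CPM with ruxolitinib against 37.1 to 38.1 CPM in control. Of the 12, 7 were high enough to test. HOXA9 and HOXA10 rose among them, HOXA10 not without the whole of batch 1 (adjusted p = 0.0942), and 5 did not pass. MPO, CD34 and MEIS1 had 0 counts in all ruxolitinib libraries. Of 10 lymphocyte markers only NKG7 was high enough to test, and of 10 epithelial and stromal markers PECAM1, COL1A1 and VWF were. NKG7 and PECAM1 fell, and CD3D, CD3E, CD3G and KRT19 were at 0 in every library.

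With ruxolitinib, 15 of the 41 genes high enough to test rose and 0 fell. Among all 14051 tested genes 13.6% rose and 16.1% fell (29.7% together), by the edgeR quasi-likelihood test with Benjamini-Hochberg adjustment and a threshold of 0.05. The same test at an unadjusted p below 0.05 gave 23 higher and 0 lower genes among the 41. The share of all genes at that unadjusted threshold was not computed, and the 13.6% and 16.1% are not its background. DESeq2 and limma-voom, run on the same 6 libraries, also called 0 of them lower. Of all genes they called 12% and 16.1% lower. The median log2 fold change was 0.33, against -0.01 over all tested genes, and 32 of 41 values were above 0, against 48.2% of all genes. The libraries of the 2 groups did not overlap for 23 of the 41, ruxolitinib being above in each, against 20.5% of all genes. Within batches the ruxolitinib library was higher in all 3 for 26 of 41, against 25.2% of all genes. The changes were small: TYMS, KIF11 and BUB1B, the 3 largest rises that passed, came to about a doubling (log2 fold changes of 1.04, 1.06 and 1.03). In bulk RNA, more cells in cycle and more of these transcripts per cycling cell cannot be told apart. The parts of the macrophage and precursor markers in this difference were not tested.

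The S-phase and mitotic genes are set side by side here, and the difference between the phases was not tested. Of 22 tested S-phase genes 9 rose and 13 did not pass. Of 19 tested mitotic genes 6 rose and 13 did not pass. The median log2 fold change was 0.33 in both. Summed over its 25 genes, the S-phase level was 327, 336 and 324 CPM in ruxolitinib batches 1 to 3, against 270.5, 271 and 279 CPM in control. Summed over its 22 genes, the mitotic level was 98.7, 101 and 100.01 CPM with ruxolitinib, against 86.1, 81.3 and 87.6 CPM in control. Neither sum overlapped between the groups. The ratio of group means was 1.20 for S phase, with 1.21, 1.24 and 1.16 within the batches, and 1.17 for mitosis, with 1.15, 1.24 and 1.14. The mitotic sum amounted to 30.3% ± 0.448 of the S-phase sum with ruxolitinib and 31.0% ± 0.979 in control (SD, n = 3 each), a gap smaller than the spread of the control libraries. Without AURKA, the most abundant mitotic gene, the mitotic ratio was 1.27. That value is not to be set against the 1.20 of S phase, whose sum kept its own most abundant gene, MCM4. The mitotic share of the S-phase sum includes AURKA, at means of 30.49 CPM with ruxolitinib and 30.45 CPM in control. That share was not computed without AURKA. No p was computed over the genes of a phase, since they are not replicates.

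**Figure D1:**
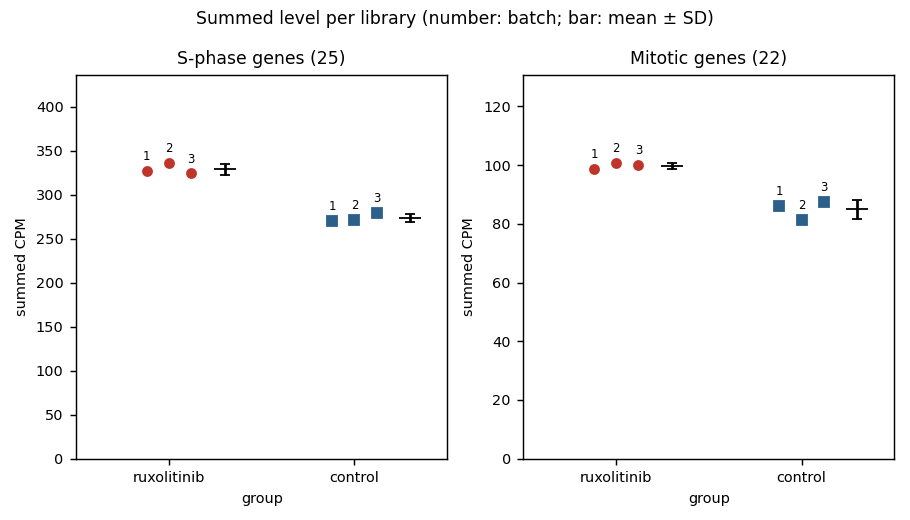
Summed CPM of the 25 S-phase genes (left) and the 22 mitotic genes (right) in each library, with ruxolitinib left of control; numbers give the batch, and the bar beside each group is the mean ± SD of 3 libraries. In both panels every ruxolitinib point lies above every control point, at 324 to 336 against 270.5 to 279 CPM for S phase and 98.7 to 101 against 81.3 to 87.6 CPM for mitosis.

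**Figure D2:**
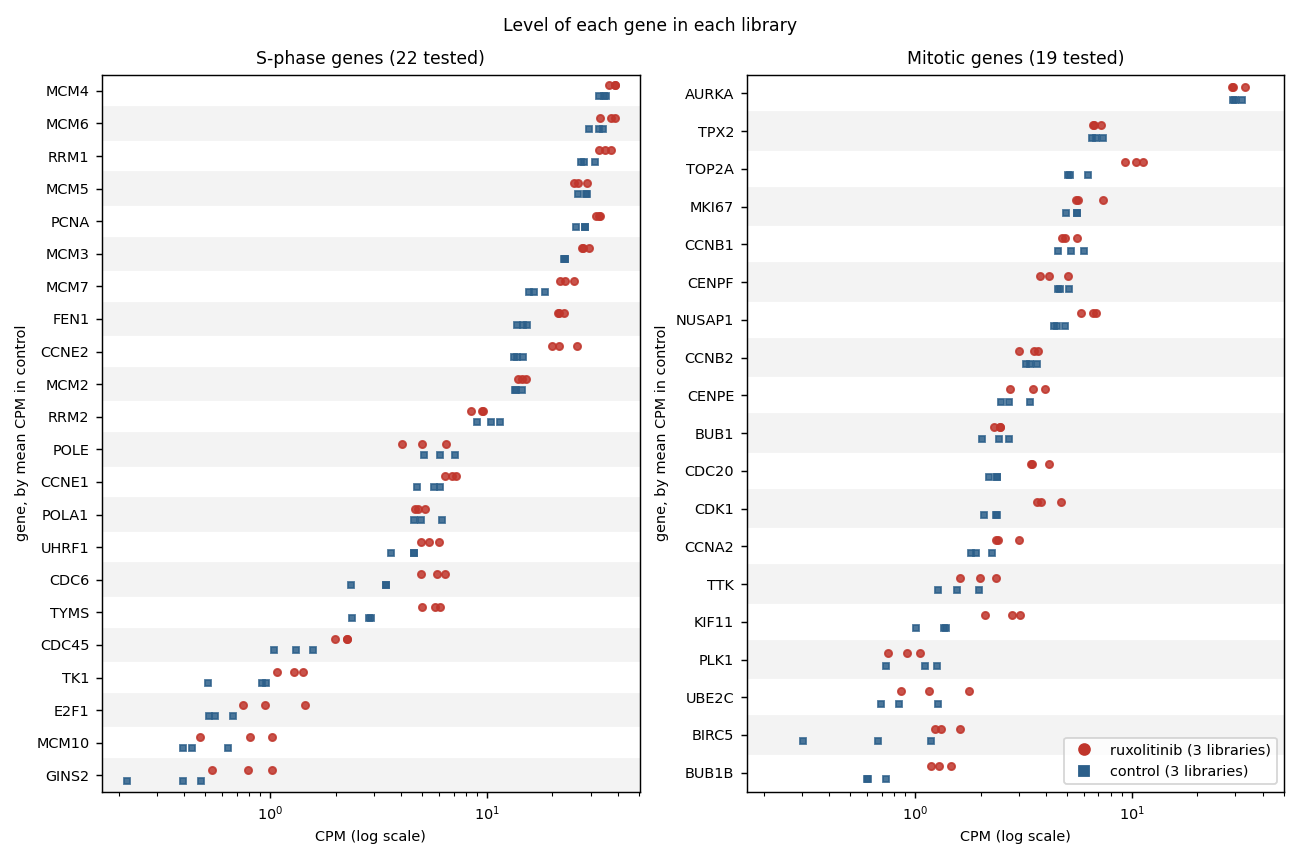
CPM on a log scale of the 41 tested genes in each library, S-phase genes on the left and mitotic genes on the right, ordered by their mean in control; circles are the 3 ruxolitinib libraries and squares the 3 control libraries. TYMS and CDC6 on the left and TOP2A, CDK1 and KIF11 on the right show separated groups, while MCM5, CCNB1, TPX2 and AURKA show groups that overlap.

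Promoter letters of the S-phase genes are shown first. These genes are known as E2F targets, so E2F letters were to be expected in the list whatever the response. The part of E2F in the 9 rises was not tested. RefSeq promoters (GRCh38.p14) were matched for 38 of the 47 genes, 22 of S phase and 16 of mitosis; MCM4, MCM5, CCNE2, AURKA, TTK, TPX2, BIRC5, UBE2C and FOXM1 were not matched. The E2F letters searched, on both strands of the 250 bases before the transcription start, were TTTCCCGC, TTTGGCGC, TTTCGCGC and TTTCCCGG. They were in 12 of 22 S-phase windows (54.5%), in 1 of 16 mitotic windows (6.25%) and in 3.55% of all 35116 promoters. Among matched S-phase genes the letters were in 4 of the 8 that rose and in 6 of the 11 that did not pass. A match is a string of letters and no measured site. The windows of TYMS, MCM7 and MCM3, the 3 with the smallest adjusted p that held the letters, follow 5' to 3' along the gene's strand, with the E2F letters in capitals.
TYMS (chr18:657403-657652, plus strand): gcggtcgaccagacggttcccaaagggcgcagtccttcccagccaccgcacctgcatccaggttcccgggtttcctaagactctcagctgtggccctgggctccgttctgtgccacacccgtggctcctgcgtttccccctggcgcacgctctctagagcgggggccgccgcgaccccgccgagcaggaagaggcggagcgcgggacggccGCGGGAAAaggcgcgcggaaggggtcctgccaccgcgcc
MCM7 (chr7:100101398-100101647, minus strand): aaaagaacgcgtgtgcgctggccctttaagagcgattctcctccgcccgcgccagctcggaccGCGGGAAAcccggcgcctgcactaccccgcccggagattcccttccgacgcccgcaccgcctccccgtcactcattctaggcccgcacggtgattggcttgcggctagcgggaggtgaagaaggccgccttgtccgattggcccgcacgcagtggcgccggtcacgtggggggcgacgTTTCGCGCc
MCM3 (chr6:52284743-52284992, minus strand): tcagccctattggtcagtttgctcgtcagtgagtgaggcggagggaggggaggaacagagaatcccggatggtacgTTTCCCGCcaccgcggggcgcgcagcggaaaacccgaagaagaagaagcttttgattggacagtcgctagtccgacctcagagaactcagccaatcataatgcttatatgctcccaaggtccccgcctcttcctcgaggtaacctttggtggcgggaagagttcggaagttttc
The letters began 39 bases before the start in TYMS, 187 and 9 bases before it in MCM7, and 174 bases before it in MCM3.

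Origin licensing genes moved unevenly. CDC6, which loads the MCM helicase onto origins, had 4.93, 6.42 and 5.85 CPM with ruxolitinib, against 3.43, 2.35 and 3.43 CPM in control. The groups did not overlap, and CDC6 rose by 0.91 ± 0.18 on the log2 scale (SE over 3 libraries in each group; edgeR adjusted p = 0.00274). MCM7, a helicase subunit whose promoter is printed above, had 22.8, 21.6 and 25.04 CPM with ruxolitinib, against 15.6, 18.5 and 16.4 CPM in control. It rose by 0.46 ± 0.09 on the log2 scale (adjusted p = 0.00223). MCM3, another subunit of the same ring, had 27.4, 27.7 and 29.5 CPM with ruxolitinib, against 22.8, 22.6 and 22.8 CPM in control. Its rise of 0.31 ± 0.07 (adjusted p = 0.00365) was lost without both libraries of batch 1 (adjusted p = 0.0556). The other subunits did not pass. MCM2 had 13.8, 15.1 and 14.5 CPM with ruxolitinib, against 13.4, 14.4 and 13.6 CPM in control, with overlapping groups and a 95% interval of the log2 fold change from -0.12 to 0.25. For MCM4 the log2 fold change was 0.15 ± 0.06 (adjusted p = 0.0756), the groups not overlapping, and MCM6 had 0.18 ± 0.08 (adjusted p = 0.102). MCM4 passed with upper-quartile scaling (adjusted p = 0.0311), and MCM6 without ruxolitinib replicate 3 (0.0393) or the whole of batch 3 (0.0401). MCM5 had -0.05 ± 0.07, with an interval from -0.21 to 0.11. No test compared one subunit with another. CDT1, the partner of CDC6 in loading, was too low to test, with 35 counts over the 3 ruxolitinib libraries and 18 over the 3 control libraries. It was high enough to test, and passed as higher, without ruxolitinib replicate 3 (adjusted p = 0.0441) or the whole of batch 3 (0.0388).

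Genes that switch the loaded helicase on were low. CDC45, which joins MCM in the active helicase, had 2.25, 2.25 and 1.98 CPM with ruxolitinib, against 1.58, 1.31 and 1.04 CPM in control. It rose by 0.73 ± 0.23 on the log2 scale (adjusted p = 0.0335), but not with the batch as a block (adjusted p = 0.068), by DESeq2 (0.121), nor without ruxolitinib replicate 1 (0.102), ruxolitinib replicate 2 (0.0801), control replicate 3 (0.109) or any whole batch (0.119, 0.0678 and 0.133 without batch 1, 2 and 3). GINS2, a helicase cofactor, had the largest log2 fold change of the S-phase genes, 1.09 ± 0.41, on 44 counts with ruxolitinib and 24 in control, and did not pass (adjusted p = 0.0677). MCM10, an initiation factor, had 0.61 ± 0.39 (adjusted p = 0.269). GINS1 was too low to test, with 25 counts with ruxolitinib and 32 in control.

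At the replication fork, FEN1 and PCNA rose and both polymerase genes did not pass. FEN1, the nuclease that trims Okazaki fragments, had 21.4, 22.7 and 21.3 CPM with ruxolitinib, against 15.2, 14.6 and 13.7 CPM in control. Its rise of 0.59 ± 0.08 on the log2 scale had the smallest adjusted p of all 47 genes (0.000141). PCNA, the sliding clamp of the polymerases, had 31.8, 33.3 and 32.8 CPM with ruxolitinib, against 28.4, 25.7 and 28.2 CPM in control. The groups did not overlap, and PCNA rose by 0.25 ± 0.07 (adjusted p = 0.0131). With the batch as a block PCNA no longer passed (adjusted p = 0.0529), nor with batch 1 (0.0847) or batch 3 (0.0595) left out whole. POLA1, the catalytic subunit of the priming polymerase, had -0.11 ± 0.15, and POLE, that of the leading-strand polymerase, had -0.25 ± 0.18, both with overlapping groups. UHRF1, which keeps DNA methylation through replication, had 0.34 ± 0.15 (adjusted p = 0.117), with groups that did not overlap. Per kilobase of exon, PCNA was the most abundant of the 47 genes, at 22.2 CPM per kilobase with ruxolitinib and 18.6 in control.

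Of the nucleotide supply genes, TYMS and RRM1 rose. TYMS, thymidylate synthase, had 6.03, 5.73 and 4.99 CPM with ruxolitinib, against 2.93, 2.39 and 2.86 CPM in control. Its log2 fold change was 1.04 ± 0.16 (adjusted p = 0.000403). RRM1, the large subunit of ribonucleotide reductase, had 35.0, 37.3 and 32.9 CPM with ruxolitinib, against 27.2, 28.0 and 31.5 CPM in control. It rose by 0.28 ± 0.08 (adjusted p = 0.0152), but not with the batch as a block (adjusted p = 0.0525), nor without ruxolitinib replicate 1 (0.0547), control replicate 1 (0.0651) or both libraries of batch 1 (0.188). RRM2, the small subunit of the same enzyme and the one that is usually limiting in S phase, had 9.54, 8.46 and 9.49 CPM with ruxolitinib, against 10.4, 8.99 and 11.5 CPM in control. Its groups overlapped, with a log2 fold change of -0.17 ± 0.12 and an interval from -0.43 to 0.09. TK1, thymidine kinase, had 0.68 ± 0.31 (adjusted p = 0.123), with groups that did not overlap.

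Among the G1/S regulators, cyclin E2 rose. CCNE2, which activates CDK2 at the start of S phase, had 21.4, 26.1 and 19.9 CPM with ruxolitinib, against 13.8, 14.7 and 13.3 CPM in control. It rose by 0.69 ± 0.10 on the log2 scale (adjusted p = 0.000337), and its groups did not overlap. CCNE1, the other cyclin E, had 7.18, 6.42 and 6.86 CPM with ruxolitinib, against 4.73, 6.09 and 5.68 CPM in control. The groups were apart there too, but its log2 fold change of 0.30 ± 0.13 did not pass (adjusted p = 0.113), although it did without the whole of batch 2 (0.0367). E2F1 had 0.944, 0.749 and 1.45 CPM with ruxolitinib, against 0.675, 0.557 and 0.521 CPM in control. All ruxolitinib libraries were higher, but the value of 0.85 ± 0.34 did not pass (adjusted p = 0.0852). E2F2 was near the detection limit, with 7 counts with ruxolitinib and 4 in control.

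Some of the S-phase genes that rose share exon bases with genes on the other strand, and whether the counting used strand is not stated in the sources used here. TYMS (chromosome 18, 657604 to 673578) overlaps TYMSOS and ENOSF1 over 1150 of its 2470 exon bases. ENOSF1 was at 26.1 CPM with ruxolitinib and 29.4 CPM in control (log2 fold change -0.17 ± 0.09, adjusted p = 0.193). CCNE2 (chromosome 8, 94879770 to 94896678) overlaps INTS8 and 1 other gene over 1633 of 4397 exon bases, and INTS8, at 140.3 CPM with ruxolitinib and 138 CPM in control, had 0.03 ± 0.04. FEN1 (chromosome 11, 61792637 to 61797244) overlaps TMEM258 over 166 bases, and TMEM258 rose by 0.49 ± 0.07; FADS2 shares exon bases with FEN1 on the same strand. MCM7 overlaps AP4M1 over 392 bases, and AP4M1 had 0.25 ± 0.14 (adjusted p = 0.213). RRM1 shares 63 bases with RRM1-AS1. If the counting did not use strand, reads of the opposite-strand pairs cannot be told apart where they overlap. Like FEN1, the genes BUB1B, NUSAP1 and RRM2 each share exon bases with 1 gene on the same strand, which use of strand does not separate. BUB1B and NUSAP1 are among the mitotic genes that rose. Of the 15 tested S-phase genes with no opposite-strand overlap, 4 rose (MCM3, PCNA, CDC6 and CDC45). Of all tested genes, overlapping ones included, 13.6% rose. None of the 6 mitotic genes that rose has an opposite-strand overlap.

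**Figure D3:**
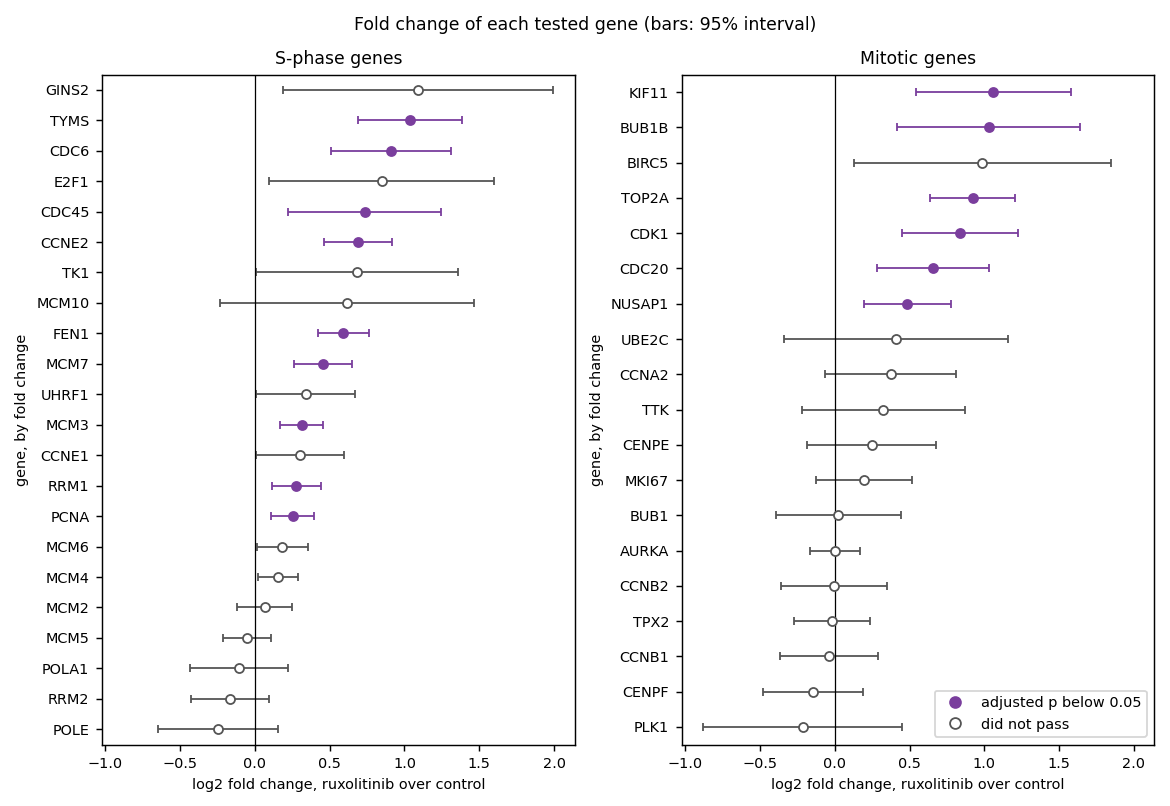
Log2 fold change, ruxolitinib over control, of the 22 tested S-phase genes (left) and the 19 tested mitotic genes (right), with 95% intervals; filled points passed an adjusted p of 0.05. The 9 and 6 filled points all lie above 0, from 0.25 (PCNA) to 1.06 (KIF11), and the open points range from -0.25 (POLE) to 1.09 (GINS2).

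For the mitotic genes the promoter letters searched were those of the CHR, TTTGAA and TTCGAA, on both strands of the same 250 bases; TTCGAA reads the same on both. They were in 8 of 16 mitotic windows (50%), in 2 of 22 S-phase windows (9.09%) and in 14.3% of all promoters. Among matched mitotic genes they were in 5 of the 6 that rose and in 3 of the 8 that did not pass. Mitotic genes are known to be read through the CHR, so its letters were to be expected here whatever the response. A match is no measured site, and the part of the CHR in the 6 rises was not tested. CCAAT, the box that usually accompanies a CHR, was in 14 of 16 mitotic windows, 15 of 22 S-phase windows and 32.0% of all promoters. None of the 3 sets of letters is contained in another. The windows of TOP2A, CDK1 and KIF11, the mitotic genes with the smallest adjusted p that held CHR letters, follow with those letters in capitals.
TOP2A (chr17:40417897-40418146, minus strand): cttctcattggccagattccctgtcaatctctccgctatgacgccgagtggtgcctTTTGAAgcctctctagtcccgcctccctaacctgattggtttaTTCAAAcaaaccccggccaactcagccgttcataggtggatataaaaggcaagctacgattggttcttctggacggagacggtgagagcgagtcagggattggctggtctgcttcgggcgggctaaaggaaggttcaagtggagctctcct
CDK1 (chr10:60778081-60778330, plus strand): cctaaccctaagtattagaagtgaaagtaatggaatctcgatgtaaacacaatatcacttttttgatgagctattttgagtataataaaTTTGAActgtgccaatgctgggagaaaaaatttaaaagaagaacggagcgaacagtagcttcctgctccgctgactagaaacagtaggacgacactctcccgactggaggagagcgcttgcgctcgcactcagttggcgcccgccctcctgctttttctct
KIF11 (chr10:92592880-92593129, plus strand): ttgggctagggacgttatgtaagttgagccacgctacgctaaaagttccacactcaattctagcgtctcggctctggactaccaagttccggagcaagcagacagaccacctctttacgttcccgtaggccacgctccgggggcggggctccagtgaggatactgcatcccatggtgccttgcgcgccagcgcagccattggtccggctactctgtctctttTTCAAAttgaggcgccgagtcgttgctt
The letters began 194 and 151 bases before the start in TOP2A, 161 bases before it in CDK1 and 28 bases before it in KIF11.

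**Figure D4:**
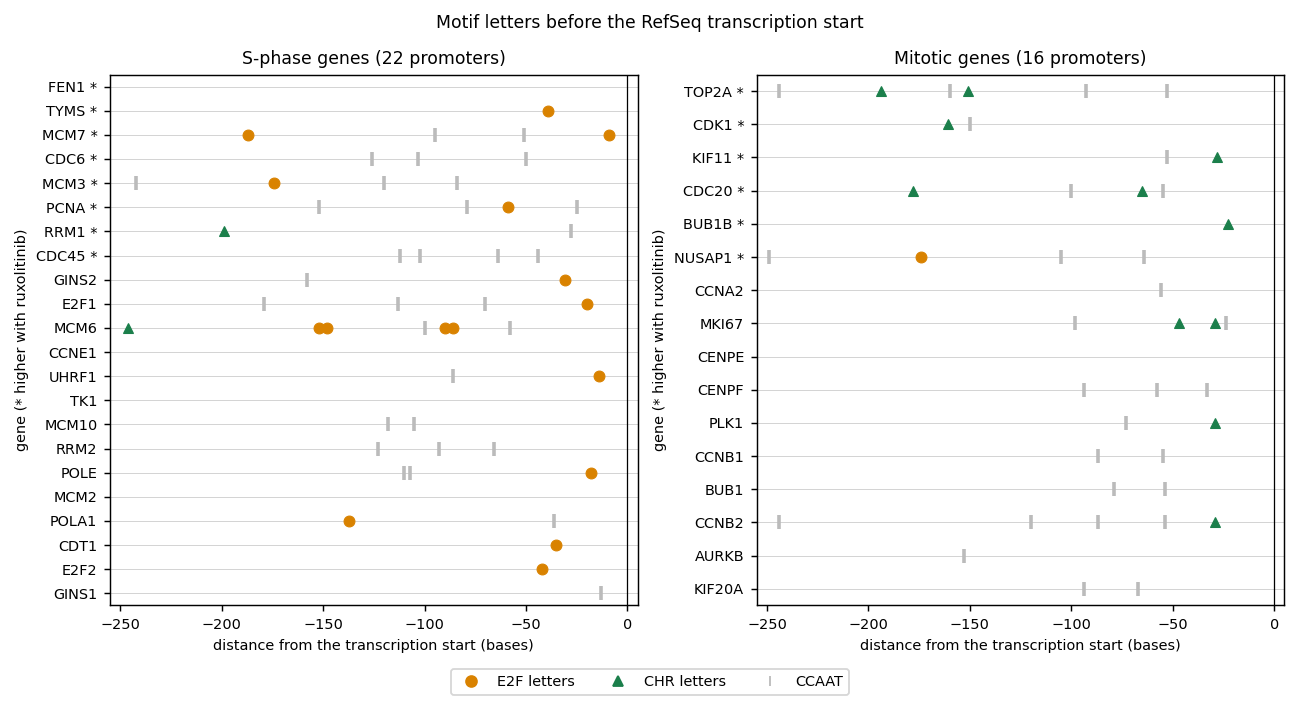
Position of E2F letters (circles), CHR letters (triangles) and CCAAT (bars) in the 250 bases before the RefSeq transcription start, for the 22 matched S-phase genes (left) and the 16 matched mitotic genes (right), each panel ordered by adjusted p with untested genes last; a star marks genes that rose with ruxolitinib. Circles are in 12 of 22 rows on the left and 1 of 16 on the right, and triangles in 2 of 22 and 8 of 16.

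Of the genes of mitotic chromosomes and of the spindle, TOP2A, KIF11 and NUSAP1 rose. TOP2A, the topoisomerase that untangles sister chromatids, had 10.4, 9.31 and 11.3 CPM with ruxolitinib, against 6.24, 5.05 and 5.16 CPM in control. The groups were well apart, with a log2 fold change of 0.92 ± 0.13 (adjusted p = 0.000209). MKI67, the proliferation antigen Ki-67 that coats mitotic chromosomes, had 5.51, 5.62 and 7.35 CPM with ruxolitinib, against 5.57, 4.97 and 5.60 CPM in control. Its groups overlapped, only ruxolitinib replicate 3 stood clearly higher, and its log2 fold change of 0.20 ± 0.15 did not pass (adjusted p = 0.354). KIF11, the motor that pushes spindle poles apart, had 2.78, 3.05 and 2.09 CPM with ruxolitinib, against 1.01, 1.35 and 1.39 CPM in control. Its log2 fold change was 1.06 ± 0.24 (adjusted p = 0.00524), lost without both libraries of batch 1 (adjusted p = 0.085). NUSAP1, which bundles spindle microtubules, had 6.61, 6.85 and 5.79 CPM with ruxolitinib, against 4.89, 4.50 and 4.38 CPM in control. It rose by 0.49 ± 0.13 (adjusted p = 0.0163), but not by DESeq2 (adjusted p = 0.0572), nor without ruxolitinib replicate 1 (0.066), ruxolitinib replicate 2 (0.0575), control replicate 3 (0.0526), the whole of batch 1 (0.114) or the whole of batch 3 (0.0563). TPX2, which activates Aurora A on the spindle, had -0.02 ± 0.12, with an interval from -0.28 to 0.24. The motor gene KIF20A was too low to test, with 19 counts with ruxolitinib and 16 in control.

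In the checkpoint and the kinetochore, where chromosomes attach to the spindle, BUB1B rose and BUB1 did not pass. BUB1B, the checkpoint protein BubR1, had 1.47, 1.18 and 1.29 CPM with ruxolitinib, against 0.731, 0.597 and 0.607 CPM in control. It rose by 1.03 ± 0.28 on the log2 scale (adjusted p = 0.0160), a call lost by DESeq2 (adjusted p = 0.0953) and without ruxolitinib replicate 1 (0.0765), control replicate 3 (0.0505), the whole of batch 1 (0.119) or the whole of batch 3 (0.0864). BUB1, a checkpoint kinase, had 0.02 ± 0.19, with an interval from -0.39 to 0.44. BIRC5, survivin, had 1.31, 1.23 and 1.61 CPM with ruxolitinib, against 1.18, 0.676 and 0.304 CPM in control. Its control libraries were widely spread, and the value of 0.99 ± 0.39 did not pass (adjusted p = 0.0810), although it did without control replicate 1 (0.0161), by limma-voom (0.0444) and with no filter on low counts (0.0275). TTK (0.33 ± 0.25), CENPE (0.25 ± 0.20) and CENPF (-0.15 ± 0.15), a checkpoint kinase, a kinetochore motor and a kinetochore protein, all had overlapping groups.

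The kinases and cyclins that drive mitosis mostly did not pass. CDK1, the mitotic kinase itself, was the exception, with 4.72, 3.80 and 3.65 CPM with ruxolitinib against 2.36, 2.07 and 2.39 CPM in control. It rose by 0.84 ± 0.18 on the log2 scale (adjusted p = 0.00377), a call lost without both libraries of batch 1 (adjusted p = 0.0707). Its partner CCNB1, cyclin B1, had 5.56, 4.92 and 4.77 CPM with ruxolitinib, against 6.02, 4.54 and 5.21 CPM in control. The CCNB1 groups overlapped, with a log2 fold change of -0.04 ± 0.15 and an interval from -0.36 to 0.29. The CDK1 interval was 0.45 to 1.23, and the difference between the 2 genes was not tested. CCNB2 had -0.01 ± 0.16. CCNA2, the cyclin of S phase and early mitosis, had 2.41, 3.00 and 2.36 CPM with ruxolitinib, against 1.80, 1.91 and 2.26 CPM in control. Its groups were just apart, with a log2 fold change of 0.38 ± 0.20 that did not pass (adjusted p = 0.189). AURKA, the centrosome kinase Aurora A, had 28.8, 33.3 and 29.3 CPM with ruxolitinib, against 30.0, 29.1 and 32.3 CPM in control. With a log2 fold change of 0.00 ± 0.08 and an interval from -0.16 to 0.17, it was the tested mitotic gene with the smallest SE. PLK1, Polo-like kinase 1, had -0.21 ± 0.30 on 51 counts with ruxolitinib and 70 in control. FOXM1, the activator of late mitotic genes, was too low to test, at 0.262, 0.375 and 0.536 CPM with ruxolitinib against 0.169, 0.199 and 0.304 CPM in control. AURKB, the centromere kinase Aurora B, was also too low, with 24 counts with ruxolitinib and 17 in control.

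Of the genes that work with the anaphase-promoting complex, which ends mitosis by degrading cyclin B, CDC20 rose. This activator of the complex had 3.46, 3.43 and 4.13 CPM with ruxolitinib, against 2.19, 2.39 and 2.39 CPM in control. Its groups did not overlap and its log2 fold change was 0.66 ± 0.17 (adjusted p = 0.0125), a call lost by DESeq2 (adjusted p = 0.0545) and without ruxolitinib replicate 3 (0.0558), the whole of batch 1 (0.101) or the whole of batch 3 (0.1). UBE2C, its ubiquitin-conjugating enzyme, had 0.41 ± 0.34 with overlapping groups (adjusted p = 0.411).

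Per kilobase of exon, the control level ranged from 0.0114 CPM per kilobase in E2F2 to 18.6 in PCNA among S-phase genes and from 0.0457 in FOXM1 to 10.4 in AURKA among mitotic genes. The median gene of S phase was at 1.72 CPM per kilobase with ruxolitinib and 1.10 in control, and that of mitosis at 0.512 and 0.414. AURKA stood far above its neighbours in the mitotic order: CCNB1, TPX2 and NUSAP1, next below it, were at 1.99, 1.89 and 2.23 with ruxolitinib and 2.05, 1.92 and 1.60 in control. Named pseudogenes of the 47 genes held few counts. The AURKA pseudogene AURKAP1 had 76 counts over all libraries beside 3727 for AURKA, and that of CDC20 had 15 beside 361.

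The rise held in all 17 alternative settings for 6 of the 15 genes: FEN1, CCNE2, TYMS, MCM7, CDC6 and TOP2A. None of the 17 settings deals with opposite-strand overlap, which FEN1, CCNE2, TYMS and MCM7 have and CDC6 and TOP2A do not. Without both libraries of batch 1, 5 S-phase genes and 1 mitotic gene (TOP2A) rose, and 840 genes of the whole table were higher and 1143 lower (5.85% and 7.96%). DESeq2 called 8 S-phase and 3 mitotic genes higher (11.4% of all genes), and without both libraries of batch 3 the mitotic count was also 3, with 9.33% of all genes higher.

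Beyond the 47, 12 further lists held 199 genes that act beside them. Among the 186 that were tested there were 28 that rose (15.1%) and 12 that fell, while 146 did not pass, with a median log2 fold change of 0.09. Of all tested genes 13.6% rose, and the lists were not tested against the 47. With the batch as a block 13 rose and 8 fell, against 9.17% and 11.6% of all genes. Of 15 other origin licensing and firing genes, 0 passed in either direction. At an unadjusted p below 0.05 the edgeR test gave 1 of the 15, TICRR. The share of all genes at that unadjusted threshold was not computed. At the adjusted threshold DESeq2 and limma-voom called 0 of the 15. DBF4, TICRR and GINS4 passed when both libraries of batch 2 were left out (adjusted p = 0.00684, 0.0105 and 0.0233). DBF4, below 0 in log2 fold change, also passed without ruxolitinib replicate 2 (0.0436), and TICRR without control replicate 2 (0.0273).

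Among the other replication genes that rose were RFC2, a clamp loader subunit, at 39.3 ± 2.76 CPM with ruxolitinib and 30.7 ± 2.17 CPM in control (log2 fold change 0.36 ± 0.07, adjusted p = 0.00317), and the chromatin genes NASP (0.24 ± 0.04), a histone chaperone, and HMGB2 (0.36 ± 0.05). Among other mitotic genes BUB3, a checkpoint protein, rose by 0.24 ± 0.05, KIF23, a cytokinesis motor, by 0.76 ± 0.18, and CDC25A, the phosphatase that activates cyclin-dependent kinases, by 0.80 ± 0.18. Of the CDK inhibitors, CDKN2C and CDKN2D, which block CDK4 and CDK6, rose by 0.39 ± 0.07 and 0.51 ± 0.12. The KIF23 call was lost without both libraries of batch 3 (adjusted p = 0.112), and those of NASP, CDC25A, CDKN2C and CDKN2D without both of batch 1 (0.0866, 0.0958, 0.0503 and 0.0898).

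The 12 genes of these lists that fell included regulators of nucleotide pools and of E2F. SAMHD1, which hydrolyses the deoxynucleotides that polymerases use and is known as an interferon-induced gene, had 22.5, 23.9 and 20.3 CPM with ruxolitinib, against 148, 148 and 152 CPM in control. It fell by 2.74 ± 0.06 on the log2 scale (adjusted p = 8.27e-12), a larger change than that of any of the 47. E2F7, a repressor of E2F targets, fell to 49.2 ± 0.927 CPM with ruxolitinib, against 73.5 ± 0.641 CPM in control (log2 fold change -0.58 ± 0.05, adjusted p = 3.53e-06). The G1 cyclin gene CCND3 fell by 0.42 ± 0.05 on the log2 scale and its kinase CDK4 by 0.28 ± 0.05. In their list of G1 cyclins and kinases these were the only 2 falls among 7 tested genes, and 3 genes rose. Of all tested genes 16.1% fell and 13.6% rose. Those 3 were the kinase genes CDK6 and CDK7 and the cyclin gene CCNH, calls lost in 3, 8 and 14 of the 17 alternatives. MASTL, a kinase that protects mitotic phosphorylation, fell by 0.62 ± 0.08, and the repair gene BRCA2 by 0.88 ± 0.12. These 6 falls held in all 17 alternatives. MYBL2, the gene of B-MYB, rose by 1.06 ± 0.30 from a low level (1.26 ± 0.115 CPM with ruxolitinib, 0.591 ± 0.134 CPM in control), a call lost in 6 of the 17, DESeq2 among them.

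**Figure D5:**
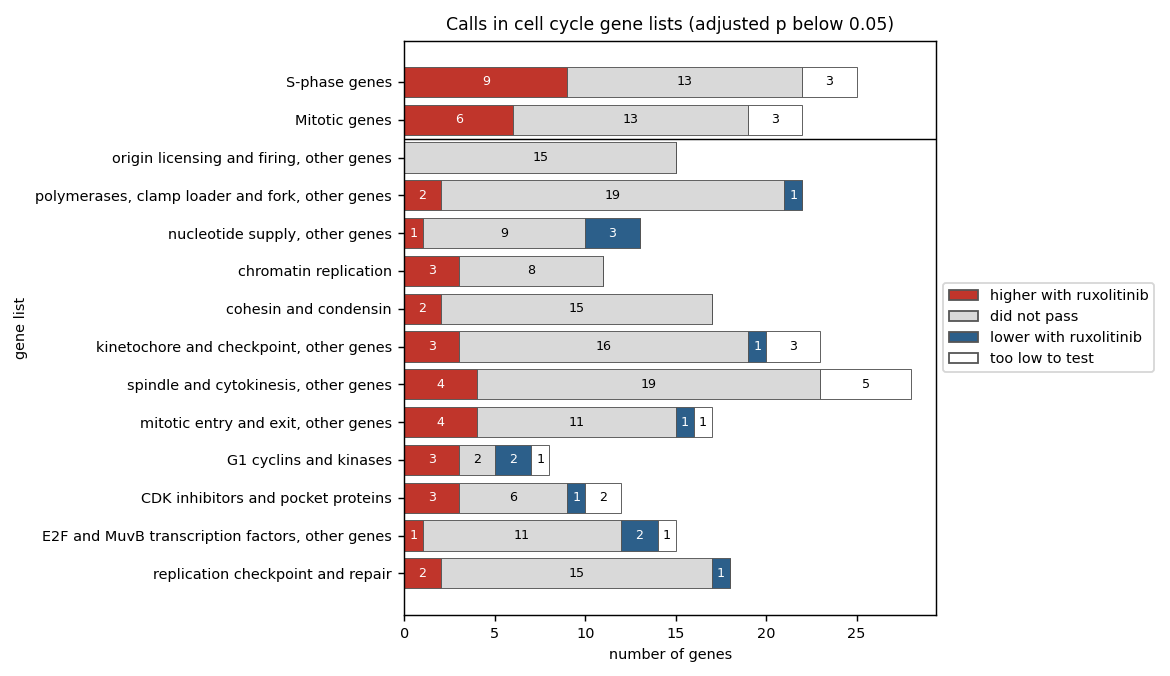
Number of genes that rose, did not pass, fell or were too low to test in the S-phase and mitotic sets (top, above the line) and in 12 further cell cycle lists with none of the 47 genes in them. In the top bars 9 and 6 genes rose and 0 fell, and in the 12 lists together 28 rose and 12 fell.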

How the data were processed

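RNA of 6 THP-1 libraries, 3 with ruxolitinib and 3 control, was sequenced after poly-A selection. The deposited table holds raw counts, whole numbers for each gene and library. The genome build was hg38, per the submitters' processing notes; aligner, counter, annotation and strandedness: not given in the sources used here. Groups were taken from the sample titles and treatment labels.

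The counts were tested with edgeR 4.0.16 (R 4.3.3; quasi-likelihood fit, TMM scaling) after a filter on low counts (filterByExpr, minimum count 10, minimum total 15), which kept 14051 of 61517 genes. P-values were adjusted over all 14051 by Benjamini-Hochberg, with a threshold of 0.05. The test was checked on simulated data. Levels are TMM-scaled counts per 1000000 (CPM), errors of levels are SD over 3 libraries, and errors of log2 fold changes are SE. Library totals of 17757595 to 24533979 counts set the precision, and limits from a count of 0 (3 counts) cover counting error only. The labels do not say whether the libraries of a group are separate cultures. The p-values rest on the spread between these libraries alone, and that spread may be technical.

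Batch numbers in the labels, each shared by 1 library of either group, pair the libraries. Within a pair, deviations from the group means correlated at -0.02, -0.19 and -0.10. The fit without the batch is the one reported; the fit with it as a block is an alternative. DESeq2 1.42.0, limma-voom 3.58.1, other scalings and filters, and leaving out libraries or batches were the other alternatives.

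The 47 genes, their phases, the 12 further lists, the marker lists and the promoter letters were chosen with earlier results of these data known. Library values are given for the 8 genes of each phase with the smallest adjusted p, for MCM2, PCNA, E2F1, CCNE1, MKI67, CCNB1, CDK1 and FOXM1, and also for RRM2, CDC45 and AURKA, which were picked after their values were seen, as were SAMHD1's library values. Of each further list, up to 4 genes with the smallest adjusted p past the threshold could be named. DBF4, TICRR, GINS4, DTYMK, HELLS, ZWINT, CDK7 and CCNH were named after their values were seen. Exon lengths, coordinates and overlaps came from GENCODE 29 (GRCh38), in which all 47 symbols matched. Promoters are RefSeq's (GRCh38.p14), of which the 250 bases before the start were searched; those with the smallest adjusted p that held the letters of their phase were printed, outside chromosome 8.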

Additional observations from a re-analysis of the deposited data

How the results depend on the processing

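Over the 17 alternative settings no gene of the 47 that passed changed direction, and 6 of 15 passed in all. Leaving out both libraries of batch 1 mattered most: 840 genes of the whole table were higher and 1143 lower, against 1908 and 2267, and 5 S-phase and 1 mitotic gene rose. Mitotic genes that rose numbered 3 by DESeq2 and 3 without both libraries of batch 3, against 6. Leaving out 1 library at a time gave 7 to 11 S-phase and 4 to 7 mitotic genes higher, beside 9.18% to 14.7% of all genes. The 11 include MCM6 and CDT1, which was too low to test with all libraries. Without genes that overlap an opposite-strand gene, an alternative chosen after seeing the data, 4 of 15 tested S-phase genes rose. Of all tested genes, overlapping ones included, 13.6% rose. None of the 6 mitotic genes that rose has such an overlap.

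With the batch as a replicate block, 6 S-phase genes rose against 9, the calls of PCNA, RRM1 and CDC45 being lost, and 6 mitotic genes rose; the block changed no other call among the 47. In the 12 further lists the block gave 13 higher against 28, and 8 lower, beside 9.17% and 11.6% of all genes.

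For those lists, with 186 genes tested in the reported fit, DESeq2 gave 15 higher, beside 11.4% of all genes. Leaving out 1 library gave 15 to 20 higher and 6 to 14 lower, against 12 lower. Of all genes 9.18% to 14.7% were then higher and 11.3% to 15.2% lower. Without both libraries of batch 1 the lists gave 4 and 7, beside 5.85% and 7.96% of all genes. Without batch 2 19 were lower, beside 17.6% of all genes. Without batch 3 it was 11 and 7, beside 9.33% and 11.2%.

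The median log2 fold change of the mitotic genes, 0.33, was 0.39 with no filter on low counts, 0.20 to 0.33 without 1 library, and 0.22 without both libraries of batch 2. The mitotic ratio of summed CPM, 1.17, was 1.27 without AURKA. AURKA had means of 30.49 CPM with ruxolitinib and 30.45 CPM in control. The cause of the shifts in the median was not tested. Fits that leave libraries out also rest on fewer of them. GINS1, CDT1, E2F2, AURKB, KIF20A and FOXM1 were too low to test with all 6 libraries.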
